A study of Homo sapiens with 6 samples.

Results

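The replication-dependent histone genes are the protein-coding genes that supply the core histones H2A, H2B, H3 and H4 and the linker histone H1 for new chromatin. They were taken by gene symbol alone, as H1-1 to H1-6 and the numbered H2AC, H2BC, H3C and H4C genes, a rule that uses no measured value. This gave 69 genes of 19692 protein-coding genes listed, namely 6 of H1, 17 of H2A, 18 of H2B, 13 of H3 and 15 of H4. Their mRNAs were measured by total RNA sequencing in MCF10A, an immortalised, non-tumorigenic human breast epithelial line of wild-type genotype. In 3 libraries (siPDCD4) the cells had been reverse-transfected with siRNA against PDCD4, an RNA-binding tumour suppressor, and in 3 libraries (siCT) with a control siRNA. Both siRNAs were used at 10 nM for 48 h, in medium with horse serum, epidermal growth factor, insulin, hydrocortisone and cholera toxin. Whether replicates were separate cultures is given by no label, and the p-values may therefore reflect technical spread alone.

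Replication-dependent histone mRNAs are made mostly in S phase, when DNA is copied, and are lost again when replication ends. Unlike other mRNAs of animal cells they carry no poly(A) tail as a rule. Their 3' end is a short RNA hairpin, the stem-loop, which is bound by the protein SLBP and cut by a complex that contains the U7 snRNP. Because a library made from total RNA does not select for poly(A), such mRNAs can be counted in it.

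The stem-loop is shown first because it is the sequence the genes share although the choice of members did not use it. The pattern searched was GG, 3 bases of any kind, TT, any base, T, any base, A, 3 bases of any kind and CC, on the transcript strand in the last 100 bases of each GENCODE 44 transcript. It was found in 68 of the 69 genes (98.6%) and in 138 of 19977 other protein-coding genes (0.691%). In the lines below the capitals mark a match whose first 6 bases pair with its last 6 (G-T pairs allowed), written as DNA with up to 5 bases on either side, and the coordinates are those of the capitals in GRCh38. The genes shown are the most abundant of each class, the 4 with the smallest p, H4C2 as a carrier of the stem-loop most frequent in H4, and H2BC5, whose forms are described further on.
H1-2, chr6:26055744-26055759, minus strand: caaaaGGCTCTTTTCAGAGCCacca
H2AC18, chr1:149842223-149842238, minus strand: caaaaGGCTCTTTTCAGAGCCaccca
H2AC14, chr6:27814308-27814323, minus strand: acaaaGGCTCTTTTCAGAGCCacttc
H2BC5, chr6:26158587-26158602, plus strand: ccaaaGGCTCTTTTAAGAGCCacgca
H2BC6, chr6:26184210-26184225, plus strand: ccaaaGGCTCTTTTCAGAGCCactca
H2BC18, chr1:149811885-149811900, minus strand: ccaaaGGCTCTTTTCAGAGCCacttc
H3C2, chr6:26031597-26031612, minus strand: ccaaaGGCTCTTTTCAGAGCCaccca
H3C7, chr6:26250145-26250160, minus strand: ccaaaGGCTCTTTTCAGAGCCacc
H4C2, chr6:26026901-26026916, minus strand: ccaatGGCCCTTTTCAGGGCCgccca
H4C13, chr6:27873153-27873168, minus strand: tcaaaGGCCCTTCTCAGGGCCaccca
H4C15, chr1:149860769-149860784, minus strand: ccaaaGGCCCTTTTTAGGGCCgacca

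Over these 68 genes, 10 distinct stem-loops were found. The form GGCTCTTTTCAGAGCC was the most frequent, with 39 genes, and occurred in H1, H2A, H2B and H3 but in no H4 gene. All 15 H4 genes began with GGCCC instead, 10 of them as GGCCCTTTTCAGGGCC and 4, H4C15 among them, as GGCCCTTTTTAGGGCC. The form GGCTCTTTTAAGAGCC was carried by 9 genes, 5 of them of H2B. The 1 gene without the pattern near its end was H2BC21, whose only listed transcript runs on for 1729 bases beyond its stem-loop.

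Histone mRNA was abundant in every library. Per length, in TPM, where a library's transcripts are scaled to a fixed sum, the 69 genes together held 17191 to 21314 TPM in siCT and 17317 to 24178 TPM in siPDCD4. Of the TPM of the members, H4 held 32.3% ± 1.57 in siCT and 31.1% ± 0.759 in siPDCD4 (SD, n = 3 per group). H2B held 27.7% ± 0.825 and 28.1% ± 0.937, and H2A 20.1% ± 1.58 and 20.5% ± 1.02. H3 held 12.1% ± 0.786 and 12.7% ± 0.864, and the linker histone H1 7.83% ± 0.346 and 7.70% ± 0.404. In TPM the order of the classes, H4 over H2B over H2A over H3 over H1, was thus the same in both groups. It depends on the scale, since by counts not divided by length H2B held most and H3 least in both groups.

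**Figure D1:**
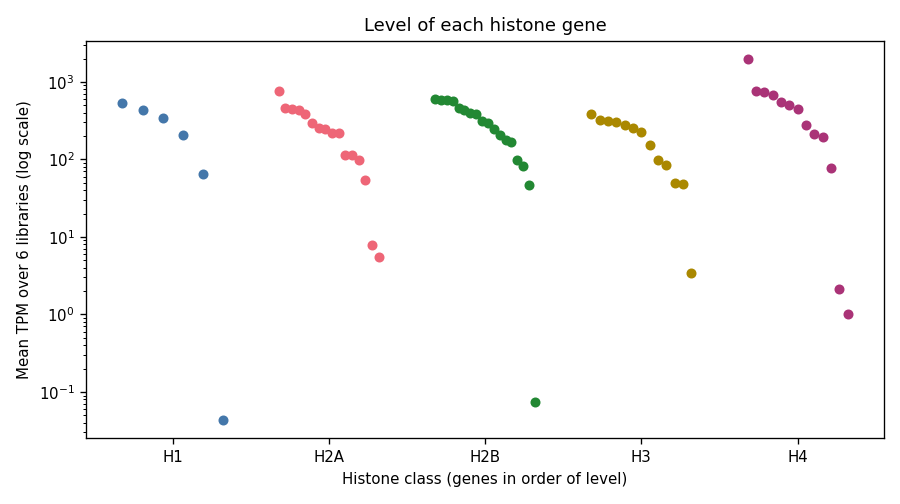
Mean level of each histone gene over the 6 libraries in TPM (log scale), by class, each point 1 gene in order of its level. H4C15 lies highest, at 1992 TPM, and the 3 genes at 0 in all libraries (H2AC1, H4C6, H4C7) are not drawn.

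Within a class the genes differed widely. A mean of at least 100 TPM was reached by 48 genes, 11 lay between 10 and 100, 5 between 1 and 10 and 5 under 1. H4C15 (chromosome 1, 149854045 to 149861159) was the most abundant at 1992 TPM and made up 31.0% of H4. It was followed in H4 by H4C2 at 762 TPM and H4C3 at 731 TPM. The leading H2A gene was H2AC18 at 761 TPM, 18.5% of its class. H2B was spread more evenly, since its leading gene H2BC18, at 596 TPM, held 10.5% of the class. H3C2 led H3 at 387 TPM (15.3%), and H1-2 led H1 at 528 TPM (33.5%), followed by H1-5 at 437 TPM and H1-4 at 340 TPM. The genes H2AC1, H4C6 and H4C7 were listed at 0 in all 6 libraries. H1-6 and H2BC1, both known from the testis, did not exceed 2.00 and 1.00 counts in any library.

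The genes lie in clusters, here taken as members on 1 chromosome with gaps of at most 500 kb. The large cluster on chromosome 6 (25723397 to 26285638, 34 genes) held 49.5% ± 3.55 of the members' TPM in siCT and 48.0% ± 2.48 in siPDCD4. The cluster on chromosome 1 from 149782689 to 149887965, with 11 genes, held 20.8% ± 2.23 and 21.3% ± 1.80. The cluster on chromosome 6 from 27807479 to 27893891, with 16 genes, held 18.4% ± 0.926 and 19.2% ± 0.887. In each case the groups differed by less than the spread between libraries.

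Among the 68 members with a transcript that ends within 20 bases of the stem-loop, 12 pairs start within 1000 bases of each other on opposite strands. Of these, 11 are an H2A gene beside an H2B gene with starts 194 to 251 bases apart. H2BC21 has no such transcript and was left out of this count. It starts at 149886682 of chromosome 1 on the minus strand, beside H2AC20 at 149886918 on the plus strand. Such pairs share their promoter region. The octamer ATTTGCAT, the motif read by OCT1 in H2B promoters, was searched on both strands of the RefSeq promoters (GRCh38.p14, 250 bases before to 50 after the start), of which 64 members had one. It was found in 14 of 18 H2B, 11 of 16 H2A and 1 of 11 H3 promoters, against 1.80% of 27305 promoters. None of the 6 promoters of H1 or the 13 of H4 held it. The H3 match, at H3C4, is the same bases (chr6:26199396-26199421) as the matches of H2AC7 and H2BC7. Most H2A matches are likewise the bases of an H2B match, so these counts are not of separate sites. CCAAT was found in 84.4% of the members' promoters against 35.7% of all, but in 3 of 13 of H4, and TATAAA in 65.6% against 12.0%. The capitals below mark the octamer in the orientation of the gene named, at pairs of high level and at H2BC6.
H2BC8, chr6:26216720-26216745, minus strand: gaattctttATTTGCATgaaaggcct
H2AC8, chr6:26216720-26216745, plus strand: aggcctttcATGCAAATaaagaattc
H2BC11, chr6:27132826-27132851, minus strand: cttcaccttATTTGCATaagcgattc
H2BC6, chr6:26183644-26183669, plus strand: agctccttcATTTGCATgcagacttc
The first 2 lines are the same bases read from either strand, since H2BC8 and H2AC8 face away from this site. Their levels were 592 and 436 TPM. Among the 12 pairs, levels differed by 1.14 to 2.23 times within the 10 with both genes tested other than H2AC25 and H2BC26. H2AC25 stood at 7.86 TPM and H2BC26 at 166 TPM. H2BC21 and H2AC20, outside this count, differed by more than these 10 in TPM, at 82.5 and 296 TPM. The TPM of H2BC21 rests on its only listed transcript, of 2224 bases. In siCT, counts on a common library size (CPM) were 191 ± 13.2 for H2BC21 and 101 ± 1.72 for H2AC20, the reverse order.

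Several members are near copies that reads of 75 bases cannot tell apart. H2AC18 and H2AC19, H3C14 and H3C15, and H4C14 and H4C15 share all 75-base windows of the shorter transcript. Thus H2AC18 held 3460 to 5630 counts per library while H2AC19 was listed at 0 in 5 libraries and at 219 in siPDCD4 replicate 1. The short stem-loop transcript of H4C14 is not among those listed, so the level of H4C15 can include reads of H4C14. H4C11 and H4C12 share 92.0% of the windows, and H2AC13 and H2AC14 64.2%. The split between such copies is uncertain and their sums are more reliable. The sum of H2AC18 and H2AC19 was 274 ± 42.4 CPM in siCT and 305 ± 86.4 CPM in siPDCD4, and that of H4C14 and H4C15 was 452 ± 34.9 and 493 ± 125 CPM. CPM, here and below, are counts put on a common library size, with an adjustment for the average length of a gene's transcripts in each library.

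The silenced gene was low in every siPDCD4 library. PDCD4 stood at 90.4, 89.0 and 61.1 CPM in siCT, in the order of the replicate numbers, and at 9.16, 7.43 and 8.62 CPM in siPDCD4. In edgeR its log2 fold change was -3.25 ± 0.17 (SE) with an FDR of 2.15e-05. Library totals lay between 13410441 and 21828931 estimated counts. Replicate 3 of siCT had the lowest total and the lowest share of protein-coding counts, 76.2% against up to 86.4%, and stood apart on the first principal component.

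The question here was whether the histone mRNAs differ after PDCD4 is silenced. Summed over all classes they did not differ beyond the spread between libraries. The sum was 7012, 6931 and 5958 CPM in the siCT libraries and 7070, 8013 and 5799 CPM in the siPDCD4 libraries. The highest and the lowest library were thus both siPDCD4, and siCT lay between them. The means were 6634 ± 587 and 6961 ± 1111 CPM (SD, n = 3 per group), a log2 difference of 0.06 ± 0.16 (SE). In bulk RNA fewer cells in S phase and less histone mRNA per cell cannot be told apart.

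No class stood apart either. H4 was at 1517 ± 183 CPM in siCT and 1528 ± 208 CPM in siPDCD4, and H3 at 827 ± 63.5 and 913 ± 206 CPM. H2A was at 1369 ± 96.8 and 1475 ± 309 CPM, and H2B at 1927 ± 209 and 2021 ± 253 CPM. H1 was at 993 ± 123 and 1022 ± 144 CPM. The log2 differences ran from 0.01 ± 0.15 for H4 to 0.12 ± 0.20 for H3, each smaller than its SE, and the groups overlapped in all 5 classes. Without siPDCD4 replicate 2 all 5 differences lay below 0, and without siPDCD4 replicate 3 they lay between 0.11 and 0.29.

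**Figure D2:**
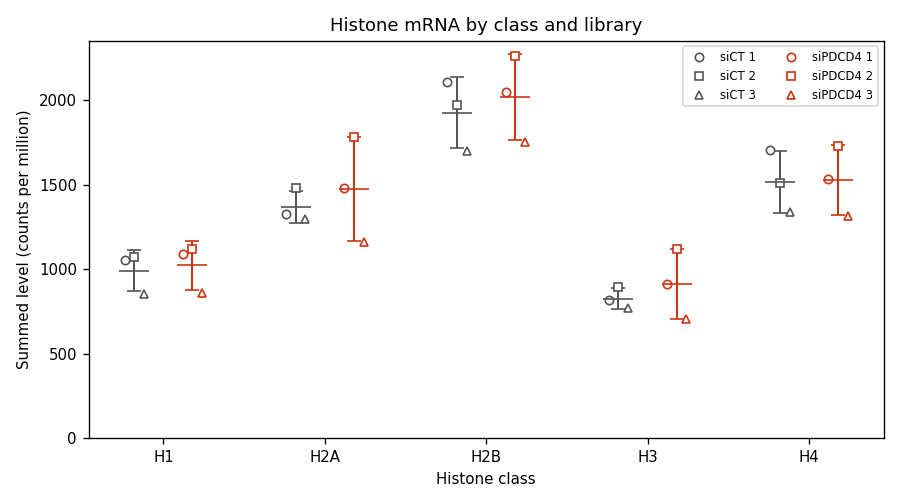
Summed level of each histone class in CPM, by library (open points, 1 shape per replicate number), with the group mean (horizontal bar) and SD (error bar). In every class siPDCD4 replicate 2 is the highest library, and the groups overlap.

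Of the 69 genes, 62 passed the expression filter and were tested. None passed an FDR of 5% in edgeR, where 56 of all 13047 genes tested did (0.429%), 22 higher (0.169%) and 34 lower (0.261%). DESeq2, which called 1.46% of all genes, also called 0 members. So did limma-voom, whose share of all genes is not given here, so its 0 cannot be weighed. At an unadjusted p under 0.05 there were 4 members in edgeR, or 6.45% of those tested, against 8.62% of all genes (4.1% with a higher level in siPDCD4). A share near or under that of all genes is no result about the histone genes.

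The 4 members with the smallest p were all higher in siPDCD4. H2BC6, an H2B gene of low level, stood at 14.1, 14.6 and 11.1 CPM in siCT and at 18.8, 21.1 and 15.0 CPM in siPDCD4, and the groups did not overlap. Its log2 fold change was 0.45 ± 0.17 with an FDR of 0.43. H4C13 stood at 38.3, 38.6 and 36.9 CPM in siCT and at 42.6, 59.3 and 41.5 CPM in siPDCD4. Its groups did not overlap either (log2 fold change 0.33 ± 0.14, FDR 0.52), and without siPDCD4 replicate 2 its log2 fold change was 0.15. H3C7 stood at 71.7, 81.1 and 74.5 CPM in siCT and at 94.5, 110 and 78.7 CPM in siPDCD4, where replicate 3 lay below the highest siCT library (0.32 ± 0.12, FDR 0.45). H2AC14 stood at 66.9, 76.7 and 64.0 CPM in siCT and at 83.8, 102 and 70.8 CPM in siPDCD4 and overlapped too (0.30 ± 0.13, FDR 0.54). Summed with its near copy H2AC13, it gave 0.22 ± 0.14 (FDR 0.81). H2BC6 and H4C13 were the only tested members whose groups did not overlap, both with siPDCD4 above. The groups of H4C9, which was not tested and held at most 8 counts in a library, did not overlap either. The tested pair made up 3.23% of those tested, against 14.0% of all genes (6.84% with siPDCD4 above and 7.11% below).

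The groups overlapped for the abundant genes. H4C15 was at 425, 489 and 434 CPM in siCT and at 495, 611 and 364 CPM in siPDCD4, with the highest and the lowest value both in siPDCD4. H2AC18 was at 230, 314 and 279 CPM in siCT and at 289, 394 and 221 CPM in siPDCD4. H3C2 was at 143, 141 and 118 CPM in siCT and at 143, 164 and 114 CPM in siPDCD4. In all 3 genes siPDCD4 spans the wider range. H2BC18 was at 203, 196 and 172 CPM in siCT and at 205, 237 and 182 CPM in siPDCD4. H1-2 was at 373, 350 and 265 CPM in siCT and at 329, 310 and 266 CPM in siPDCD4, and was among the 16 members with an estimate below 0 (log2 fold change -0.12 ± 0.13, FDR 0.92). The lowest estimate was that of H4C8 (-0.17 ± 0.18, FDR 0.92), whose siCT replicate 1, at 173 CPM, lay above the other 5 libraries, at 98.6 to 127 CPM.

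By class, the median log2 fold change was 0.17 for the 13 H3 genes tested, 0.13 for the 15 of H2A, 0.09 for the 5 of H1, 0.08 for the 17 of H2B and 0.03 for the 12 of H4. Estimates above 0 were given by 11 of 13 H3, 12 of 15 H2A, 13 of 17 H2B, 4 of 5 H1 and 6 of 12 H4 genes. Over all members 46 of 62 lay above 0 (74.2%) against 48.7% of all genes, with a median of 0.12 against -0.01. This count rests on single libraries. Without siPDCD4 replicate 2, 23 of the members lay above 0 and the median was -0.05. Without siPDCD4 replicate 3, 55 lay above 0, the median was 0.22 and 20 members had an unadjusted p under 0.05 in edgeR. The share of all genes under 0.05 was not counted in that fit, so the 20 is no result about the members. Without siCT replicate 3 the median was 0.06.

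**Figure D3:**
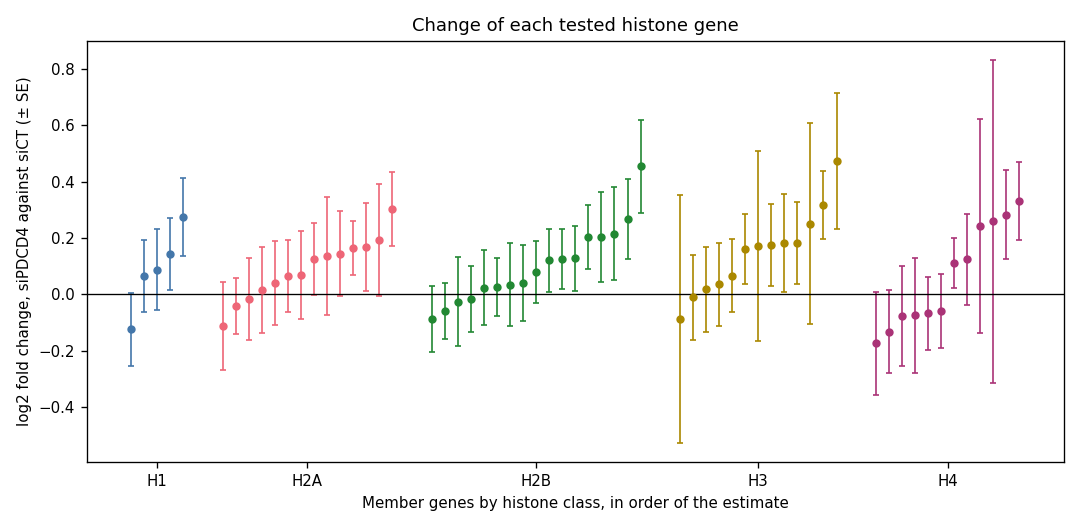
log2 fold change of siPDCD4 against siCT from edgeR for 61 of the 62 tested histone genes, by class and in order of the estimate (points), with the SE (bars). No gene passes an FDR of 5%. H2AC25, with an estimate of 0.53 ± 1.73, is not drawn.

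The members moved together from library to library. For each of the 61 members above 0 CPM in all libraries the log2 level was set against its mean over the 6 libraries. The median over these members was 0.04 in siCT replicate 1, 0.04 in replicate 2 and -0.20 in replicate 3. In siPDCD4 it was 0.07, 0.27 and -0.22. In siPDCD4 replicate 2, 56 of the 61 lay above their mean, and in siPDCD4 replicate 3 only 2 did. In siCT replicate 3 there were 4. The 2 extreme libraries thus belong to the same group, and the spread within siPDCD4, from -0.22 to 0.27, is wider than the difference between the group medians. Over all genes the medians lay between -0.02 and 0.02.

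**Figure D4:**
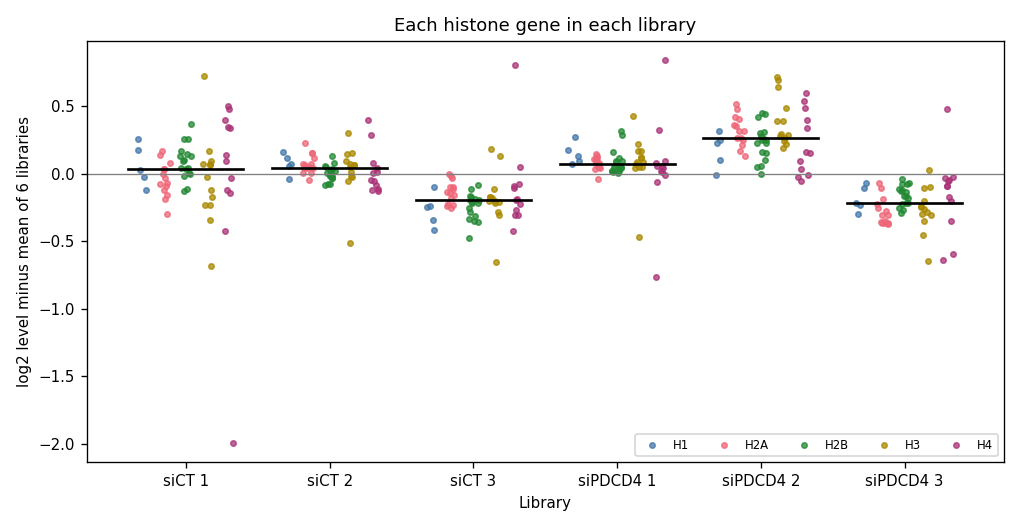
log2 level of each of 61 histone genes in each library, minus its mean over the 6 libraries, coloured by class, with the median of the library (black bar). siPDCD4 replicate 2 is high, at a median of 0.27, and siPDCD4 replicate 3 and siCT replicate 3 are low, at -0.22 and -0.20.

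Other gene lists followed the same order in part, among them the S phase and DNA replication genes. Their median over 48 genes was 0.06, 0.003 and -0.13 in siCT replicates 1, 2 and 3, and 0.07, 0.07 and -0.08 in siPDCD4. Thus they too were lowest in the third replicate of each group. The third replicates, siCT and siPDCD4 in turn, were also lowest in their group for the 10 epithelial markers (-0.18 and -0.05), the 11 histone variants (-0.18 and -0.04), the 21 processing factors (-0.09 and -0.04) and the 19 chaperones (-0.06 and -0.01). The order was thus not particular to the S phase list. For 5 markers of other cell types the third replicates were instead the highest in their group (0.49 and 0.20). For the S phase genes siPDCD4 replicates 1 and 2 lay close to each other, where the histones differed by more. The members' deviations were also set against base composition. In siPDCD4 replicate 2 the Pearson correlation of a member's deviation with the GC content of its transcript was 0.78 over 60 members, against 0.22 over 12957 genes. In siCT replicate 1 it was -0.43 over members and -0.27 over all genes, and in siPDCD4 replicate 3 -0.40 and -0.11. It was 0.36 and 0.02 in siCT replicate 2, 0.34 and 0.08 in siCT replicate 3 and -0.14 and 0.06 in siPDCD4 replicate 1. The histones were low in both siCT replicate 3 and siPDCD4 replicate 3, where the correlation over members was 0.34 and -0.40. The members share library, cluster and sequence, so these correlations are a description. The part of base composition or of the cell cycle in the histone levels was not tested.

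Besides the short mRNA, 16 members have a spliced transcript listed. Transcripts that end within 20 bases of the stem-loop held 96.4% to 97.0% of the members' counts in every library. The largest contributor of the rest was H2BC21, at 2171 to 4126 counts, all in its long transcript of 2224 bases. No transcript of H2BC21 or H4C14 ending at the stem-loop is listed, so the share depends in part on the list of transcripts. H2BC21 stood at 191 ± 13.2 CPM in siCT, beside 190 ± 16.7 CPM for H2BC18, the H2B gene leading in TPM. At the length of its long transcript H2BC21 had a mean of 82.5 TPM over the 6 libraries. H3C6 was the reverse of its class, with 78.8% to 91.1% of its 61.7 to 90.2 counts in a transcript of 2 exons. H2AC6 had 5.11% to 12.5% of its counts in spliced transcripts, H2BC15 10.6% to 17.6% and H4C15 1.39% to 3.25%.

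H2BC5 was chosen after its values were seen. Its 2-exon transcript H2BC5-201, of 789 bases and without the stem-loop, held 11.2, 10.2 and 15.8 counts in siCT replicates 1, 2 and 3 and 40.0, 32.2 and 57.7 counts in siPDCD4. The groups did not overlap, as for 5.12% of all transcripts with siPDCD4 above. In edgeR over 47375 transcripts its log2 fold change was 1.78 ± 0.48, which did not pass (FDR 1.00, with 0 transcripts called and 3.11% at an unadjusted p under 0.05). In DESeq2, which called 1.15% of transcripts, its FDR was 0.0315. The stem-loop transcript H2BC5-202 held 1651 to 3336 counts and overlapped between groups, at 150 ± 19.7 CPM in siCT and 151 ± 17.0 CPM in siPDCD4. The spliced form was 0.336% to 0.945% of the gene's counts in siCT and 1.33% to 2.60% in siPDCD4, and the log2 fold change of H2BC5 as a gene was 0.03 ± 0.10.

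**Figure D5:**
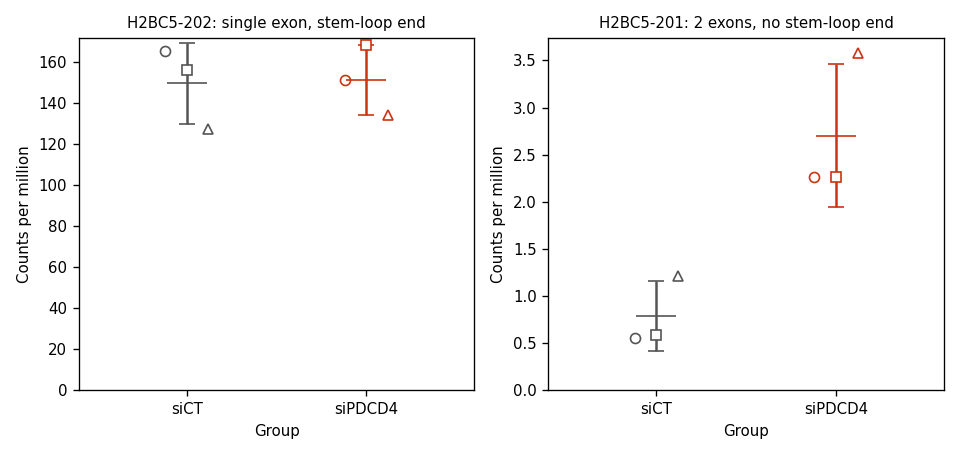
Level in CPM of the stem-loop transcript (left) and the 2-exon transcript (right) of H2BC5 by library (open points), with the group mean (bar) and SD (error bar). The 2-exon transcript lies at 0.557 to 1.22 CPM in siCT and at 2.26 to 3.58 CPM in siPDCD4, while the stem-loop transcript overlaps between groups.

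The factors that make and process histone mRNA were measured beside their products. Of 21 tested factors of histone mRNA transcription, processing and decay, 0 passed in edgeR. An unadjusted p under 0.05 was given by 3 (14.3%), against 8.62% of all genes. SLBP, which binds the stem-loop, was at 78.7 ± 6.69 CPM in siCT and 72.7 ± 5.10 CPM in siPDCD4 (log2 fold change -0.12 ± 0.10, FDR 0.88). NPAT, the activator of histone gene transcription, was at 37.2 ± 1.75 and 40.8 ± 2.38 CPM (0.13 ± 0.10, FDR 0.85). The smallest p was that of NCBP2, a subunit of the nuclear cap-binding complex, at 105 ± 7.89 and 82.9 ± 5.86 CPM with groups that did not overlap (-0.34 ± 0.09, FDR 0.23). MIF4GD, a partner of SLBP in translation, was at 3.83 ± 0.377 and 5.78 ± 0.578 CPM (0.59 ± 0.21, FDR 0.39), and the cleavage factor subunit CPSF2 at 175 ± 9.14 and 155 ± 0.932 CPM (-0.18 ± 0.08, FDR 0.54). Groups did not overlap for MIF4GD and CPSF2 either, so for 3 of the 21 (14.3%), against 14.0% of all genes. CASP8AP2, also known as FLASH, was listed at 0 in 5 libraries and was not tested.

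Of the histone variants listed outside the symbol rule, 0 of the 11 tested were called. H2AJ gave a log2 fold change of 0.25 ± 0.14 and H2AX, the variant phosphorylated at DNA breaks, 0.24 ± 0.15. H2AZ1, at 582 ± 95.0 and 562 ± 21.1 CPM, and H3-3B, at 498 ± 28.0 and 506 ± 9.46 CPM, had overlapping groups. Of 19 chaperones that carry or deposit histones 0 were called, with MMS22L at -0.22 ± 0.12, ASF1A at -0.19 ± 0.11, HJURP at 0.17 ± 0.09 and NASP, which holds the pool of free H3 and H4, at 161 ± 8.65 and 161 ± 5.90 CPM.

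Of 48 S phase and DNA replication genes 0 were called and 2 had an unadjusted p under 0.05 in edgeR (4.17%, against 8.62% of all genes). E2F1, a transcription factor of S phase entry, was at 19.3 ± 0.254 CPM in siCT and 25.2 ± 2.04 CPM in siPDCD4 (0.39 ± 0.12, FDR 0.27). CCNE2, a cyclin of the same transition, was at 30.3 ± 2.03 and 35.8 ± 2.06 CPM (0.25 ± 0.11, FDR 0.53). CDT1, which licenses origins, was at 15.9 ± 2.31 and 21.0 ± 4.71 CPM (0.40 ± 0.18, FDR 0.59), and the polymerase clamp PCNA at 201 ± 22.6 and 210 ± 15.6 CPM (0.07 ± 0.10).

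All 10 epithelial markers of the cell line were found, with a summed level of 5248 to 5632 CPM in siCT and 4876 to 5738 CPM in siPDCD4. None passed an FDR of 5% in edgeR, and 3 of the 10 had an unadjusted p under 0.05, against 8.62% of all genes. These were TP63 (log2 fold change 0.36 ± 0.09, FDR 0.18), EPCAM (0.47 ± 0.16, FDR 0.38) and ITGA6 (0.19 ± 0.08, FDR 0.57). Of 12 markers of other cell types, 5 had a mean of at least 1 CPM, and ALB and CD3E were at 0 throughout. Their sum was 42.8 to 56.9 CPM in siCT and 27.6 to 42.3 CPM in siPDCD4. The largest of them in every library was DCN (-1.10 ± 0.20, FDR 0.054), while CD14 gave 0.68 ± 0.17 (FDR 0.19) and PECAM1 1.28 ± 0.45 (FDR 0.41). Their part in the histone values was not tested.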

How the data were processed

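The 6 libraries (3 siPDCD4, 3 siCT) were made from total RNA of MCF10A with a stranded kit. The authors ran Salmon against GRCh38 transcripts (Salmon version: not given in the sources used). The deposited tables give estimated counts and TPM per transcript, together with transcript lengths. Of 194142 transcripts 181244 were matched to GENCODE 44 and summed to 34486 genes. For the tests the counts were rounded and given to edgeR 4.0.16 under R 4.3.3 (robust quasi-likelihood, TMM, filterByExpr, group as the only factor, offset for average transcript length), with Benjamini-Hochberg adjustment and a threshold of 5%. DESeq2 1.42.0, limma-voom (limma 3.58.1), other scalings, no filter, a replicate block and leaving out each library were alternatives. The edgeR, DESeq2 and limma-voom tests were also run on simulated gene counts, without a length offset or replicate block. The planted changes were larger than any member's estimate in the main fit, so changes of the members' size were not simulated. Class sums were compared by mean, SD and SE, with no test. Transcript fits and merged copies (at least 50% of 75-base windows shared) were added after seeing the data. The rule for members uses symbols alone, but this gene family and the lists were chosen with earlier results of these data known. Named were PDCD4, per class the 3 members highest in TPM, per direction the 4 with the smallest p, per list the called genes and the 3 with the smallest p, and fixed factors such as SLBP. ASF1B, IPO4 and E2F2 were not analysed here. A gene that the naming rule selects is not reported here.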

Additional observations from a re-analysis of the deposited data

How the results depend on the processing

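The count of histone genes called was 0 under every alternative run. The number of all genes called (56, with 22 higher and 34 lower) became 191 (84 and 107) with DESeq2, 108 (43 and 65) without the expression filter, 128 (54 and 74) without the length offset and 102 (37 and 65) with a replicate block. Leaving out 1 library gave 17 to 40 genes called, 6 to 11 higher and 11 to 29 lower. Members with an unadjusted p under 0.05 rose from 4 to 8 with the replicate block. They ranged from 0 to 20 when 1 library was left out. The share of all genes was not counted in those fits, so these counts are no result about the histone genes. With 1 library left out, members above 0 ranged from 23 to 55, and their median log2 fold change from -0.05 to 0.22. The same-numbered libraries of the groups correlated at 0.09, 0.13 and 0.20 in their deviations, and those of different number at -0.21 to 0.11. No label says that equal numbers belong together, and the main fit used group alone. Whether equal numbers share a batch was not tested. Of the S phase list 1 gene, CCNE2, was called without the length offset. Of the markers of other cell types 1, DCN, was called with DESeq2, without the filter and with the replicate block, and 0 to 1 when 1 library was left out (called without siPDCD4 replicate 3). The estimate of NASP turned to -0.086 without the length offset. When 1 library was left out it ranged from -0.031 to 0.045, and estimates also crossed 0 for H1-4 (-0.062 to 0.25), H2AC18 (-0.10 to 0.33), H2AC13 (-0.012 to 0.35), H2AC12 (-0.0086 to 0.28), H2BC8 (-0.12 to 0.12), H2BC12 (-0.0014 to 0.25), H3C2 (-0.057 to 0.20), H3C15 (-0.044 to 0.50), H4C15 (-0.066 to 0.31), H4C2 (-0.28 to 0.055), H4C3 (-0.23 to 0.19), H4C8 (-0.34 to 0.075), H2BC11 (-0.19 to 0.028), PCNA (-0.021 to 0.14), H2AZ1 (-0.16 to 0.072) and H3-3B (-0.021 to 0.056). The cause was not tested. Requiring the most frequent stem-loop letter for letter left 39 of 68 genes. The log2 differences of the class sums moved by less than 1 SD between libraries under every alternative run, but with 1 library left out each changed sign, from -0.066 to 0.16 for H1, -0.058 to 0.25 for H2A, -0.021 to 0.16 for H2B, -0.038 to 0.29 for H3, -0.087 to 0.11 for H4 and -0.047 to 0.19 for all classes.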
